A study of Mus musculus with 6 samples.

Results

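The urea cycle enzymes, the products of Nags, Cps1, Otc, Ass1, Asl and Arg1, were followed in the livers of hepatocyte-specific NEK7 knock-out mice. The members were the rows of the gene table with these 6 symbols, 6 of 17975 genes. RNA was sequenced from the livers of 3 homozygous knock-out (Hom) mice and 3 wild-type (WT) mice, which gives the single comparison of Hom with WT livers. Hom mice carried NEK7 fl/fl together with Alb-Cre, a Cre recombinase driven by the albumin promoter and so active in hepatocytes. The control mice of the breeding scheme carried either NEK7 fl/fl without Cre or Alb-Cre without floxed alleles, and which of these each sequenced WT liver was is not given in the sources used here. All mice were on a C57BL/6 background, and the age and sex of the 6 sequenced mice are likewise not given. The study's reporting summary gives an age range in weeks for its mice in general. It states that both sexes were used in knock-out experiments, with controls matched for sex and age. Each animal's sex is said to be in source data, which were not available here. Each library came from 1 piece of whole liver of 1 mouse, so it holds RNA of every liver cell type.

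The urea cycle is the route by which the liver turns toxic ammonia into urea. NAGS, CPS1 and OTC work in the mitochondria, where NAGS makes the N-acetylglutamate without which CPS1 is inactive, CPS1 joins ammonia and bicarbonate into carbamoyl phosphate, and OTC transfers that group to ornithine to give citrulline. ASS1, ASL and ARG1 work in the cytosol, where ASS1 couples citrulline to aspartate, ASL splits the product into arginine and fumarate, and ARG1 cleaves arginine into urea and ornithine. The enzymes are most abundant in periportal hepatocytes, while pericentral hepatocytes take up the remaining ammonia as glutamine through glutamine synthetase, encoded by Glul.

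Nek7, the targeted gene, had 1127, 1077 and 1036 estimated reads in WT replicates 1 to 3 and 310, 439 and 387 in Hom replicates 1 to 3, which is in the direction of the labels (log2 fold change −1.99, adjusted p = 1.59e-04). The library totals were nearly equal, from 19349418 to 19730236 estimated counts. TMM factors, which correct for the make-up of a library, ran from 0.81 to 0.92 in WT and from 1.09 to 1.23 in Hom livers, a mean gap of 0.46 on the log2 scale. With library size alone the median log2 fold change of all 13805 tested genes therefore moved from −0.0018 to 0.45, and every direction below is relative to the typical gene unless another scale is named. Hom replicate 1 stood apart from the other 5 livers in Y-linked counts. The Y-linked gene Ddx3y had no count in it and at least 630 in each of the others, Kdm5d had no count in it and at least 243 in the others, and Uty had 149 against at least 464. The test of each enzyme and the counts of the pathway lists are therefore given with and without this liver, other values where leaving it out changed a call or a sign or moved a ratio by over 1.5 times, and the part of the Y-linked difference in the results was not tested. Over all genes, WT replicate 1 differed more from the other WT livers (chi-square over its degrees of freedom 134 and 152). The values of Hom replicate 1 against the other Hom livers were 80.8 and 75.6. Albumin (Alb), the transcript whose promoter drives the Cre, was present at 96359 to 123821 CPM (counts scaled to a common library size, after TMM scaling) in WT and at 39606 to 55768 CPM in Hom livers.

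A RefSeq promoter sequence (GRCm38.p6, 250 bases before to 50 after the gene start) was matched by symbol for 3 of the 6 genes. All 3 are shown, since none was matched for Cps1, Asl and Arg1, and they were not chosen by expression. In TMM-scaled CPM, Otc and Ass1 were lower in each Hom liver than in any WT liver. With TMM scaling and without Hom replicate 1, Nags had the smallest difference between groups. On library size alone without that liver, its log2 fold change was 0.29. The Otc promoter is at chrX:10252055-10252354, that of Ass1 at chr2:31470020-31470319 and that of Nags at chr11:102145263-102145562, all on the plus strand. Capitals mark matches to the motifs searched.
Otc: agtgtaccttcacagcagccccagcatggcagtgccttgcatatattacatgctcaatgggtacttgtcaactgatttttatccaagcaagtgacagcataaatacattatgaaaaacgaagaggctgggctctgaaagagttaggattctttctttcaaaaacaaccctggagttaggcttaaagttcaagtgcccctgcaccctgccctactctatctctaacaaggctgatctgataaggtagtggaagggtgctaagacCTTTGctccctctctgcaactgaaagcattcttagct
Ass1: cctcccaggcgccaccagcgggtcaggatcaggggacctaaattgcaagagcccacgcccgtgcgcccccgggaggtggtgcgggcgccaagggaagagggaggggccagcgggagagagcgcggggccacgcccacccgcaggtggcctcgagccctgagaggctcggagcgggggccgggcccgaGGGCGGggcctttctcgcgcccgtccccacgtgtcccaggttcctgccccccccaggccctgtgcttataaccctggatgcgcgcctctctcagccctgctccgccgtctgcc
Nags: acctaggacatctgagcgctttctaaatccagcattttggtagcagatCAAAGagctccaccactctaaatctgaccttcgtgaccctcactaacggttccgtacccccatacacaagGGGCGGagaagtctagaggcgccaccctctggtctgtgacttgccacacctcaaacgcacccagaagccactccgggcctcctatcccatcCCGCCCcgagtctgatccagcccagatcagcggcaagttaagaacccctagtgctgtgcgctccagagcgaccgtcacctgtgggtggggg

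These 3 promoters differed in base composition, with 44.3% G and C in Otc, 57.7% in Nags and 74.0% in Ass1. GGGCGG, the GC box bound by Sp1, was found 63 bases before the start of Ass1 and, in Nags, 132 bases before the start and on the other strand 41 bases before it. No GGGCGG was found in Otc, and 35.7% of 32851 promoters of this length hold one on either strand. CAAAG, the core of sites for the hepatocyte factor HNF4A, was present in Nags 202 bases before the start and in Otc on the other strand 14 bases after it, and 53.9% of all promoters hold it. The letters TATAAA (13.6% of promoters), CAAAGTCCA (a direct repeat of HNF4 type that includes CAAAG, 0.475%) and TTGCNNAA (a C/EBP core, 10.8%) were not found in the 3 windows. These are matches of letters only.

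With TMM scaling, all 6 enzymes had a log2 fold change under 0 in Hom livers, but Otc alone passed the test, and with library size alone the values of Nags, Cps1, Asl and Arg1 lay over 0. The count of 1 of 6 lower and 0 of 6 higher stood beside 20.1% of all tested genes lower and 21.5% higher (quasi-likelihood test of edgeR over 13805 genes, with p-values adjusted by Benjamini and Hochberg and a threshold of 0.05). The median of the 6 log2 fold changes was −0.36. In TMM-scaled CPM, each of the 6 transcripts was under all 3 WT livers in Hom replicates 2 and 3. Hom replicate 1 was over all WT livers for Nags, Asl and Arg1, within the WT range for Cps1 and under all of them for Otc and Ass1. The order depended on the scale. In unscaled counts, Hom replicates 2 and 3 were over every WT liver for Nags (1361 and 1392 against at most 1153). The same held for Arg1 (19387 and 20120 against at most 19327).

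**Figure D1:**
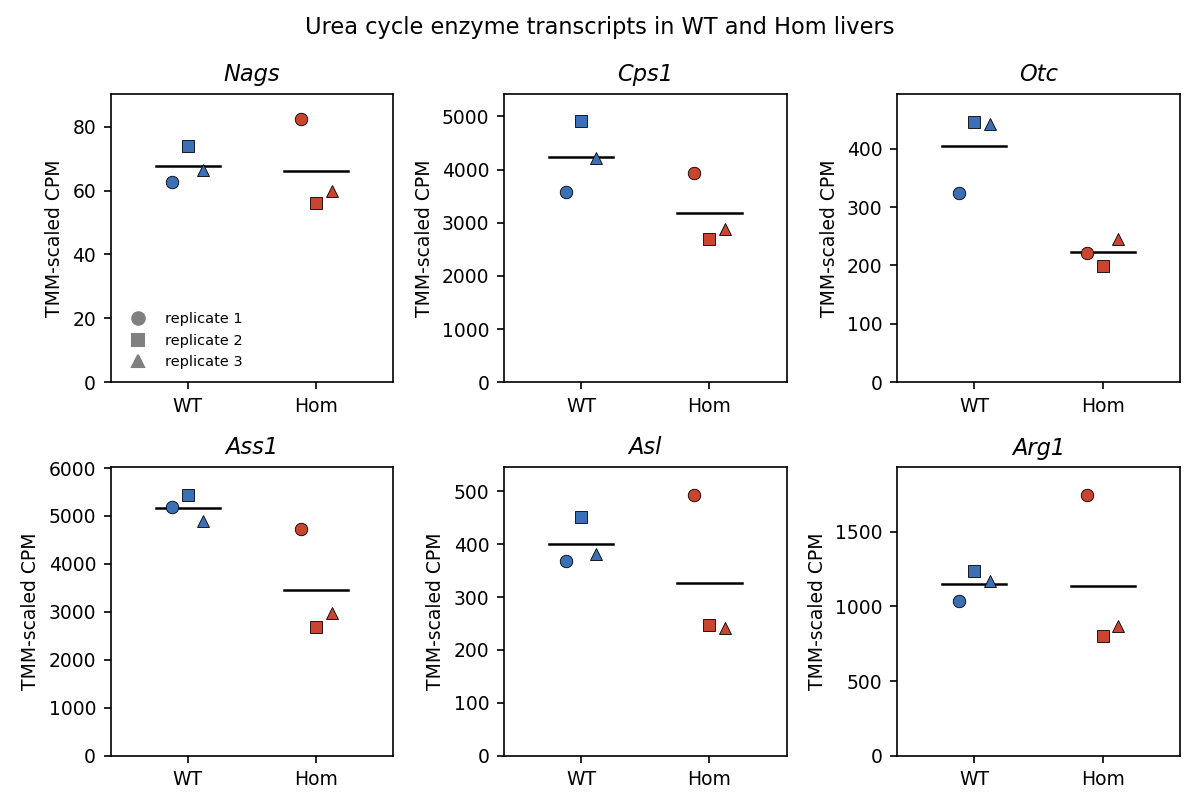
TMM-scaled CPM (vertical axes, starting at 0) of the 6 urea cycle enzyme transcripts in 3 WT livers (blue) and 3 Hom livers (red), with symbols for the replicate numbers and a bar at each group mean. The circle for Hom replicate 1 lies over the other Hom livers in 5 of the panels and among them for Otc.

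Nags (gene 217214) encodes the enzyme that makes the activator of CPS1. Its level was 62.8, 74.0 and 66.5 CPM in WT replicates 1 to 3 and 82.4, 56.1 and 60.0 CPM in Hom replicates 1 to 3. Both groups had nearly the same mean, 67.8 ± 5.67 (SD, n = 3) against 66.2 ± 14.2 CPM (SD, n = 3), since the high value of Hom replicate 1 offset the other Hom livers. The log2 fold change was −0.034 (SE 0.15, 95% interval −0.40 to 0.33, adjusted p = 0.873). Without Hom replicate 1 it was −0.22 (adjusted p = 0.123), which also missed the threshold. The scale changed this call, since on library size alone Nags was higher in Hom livers (log2 fold change 0.41, adjusted p = 0.0223), also without Hom replicate 1 (0.29, adjusted p = 0.0310).

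Cps1 (gene 227231) encodes the first and rate-setting step. It stood at 3587, 4917 and 4225 CPM in WT and at 3940, 2701 and 2883 CPM in Hom livers, so that only Hom replicate 1 reached into the WT range. The means were 4243 ± 665 and 3175 ± 669 CPM (SD, n = 3 each), a log2 fold change of −0.42 (SE 0.22, 95% interval −0.93 to 0.091, adjusted p = 0.159). Without Hom replicate 1 Cps1 was lower, by a log2 fold change of −0.60 (adjusted p = 0.0457). On library size alone it was 0.034 (adjusted p = 0.874), and −0.087 without Hom replicate 1 (adjusted p = 0.608).

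Otc (gene 18416) encodes ornithine transcarbamylase, the last mitochondrial step. Its level was 324, 446 and 442 CPM in WT livers and 222, 199 and 246 CPM in Hom livers, and the groups did not overlap. Hom livers held 222 ± 23.2 CPM against 404 ± 69.5 CPM in WT (SD, n = 3 each), or 55.0% of the WT mean. The log2 fold change was −0.86 (SE 0.16, 95% interval −1.23 to −0.49, adjusted p = 0.00594). Unlike the other members, Hom replicate 1 sat among the Hom livers, at 0.997 times the mean of replicates 2 and 3, and the fold change was again −0.86 without it (adjusted p = 0.0167). Otc was also lower with library size alone (−0.40, adjusted p = 0.0438), although with that scale and without Hom replicate 1 it no longer passed (−0.34, adjusted p = 0.0868). Otc is X-linked, and Hom replicate 1, the liver low in Y-linked transcripts, had an Otc level between those of the other Hom livers.

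Ass1 (gene 11898) encodes argininosuccinate synthetase, which brings in the second nitrogen of urea. Values were 5180, 5438 and 4887 CPM in WT and 4724, 2675 and 2976 CPM in Hom livers. Each Hom liver was under each WT liver, with Hom replicate 1 close to the lowest WT liver. The means were 5168 ± 276 and 3458 ± 1106 CPM (SD, n = 3 each). The log2 fold change of −0.58 (SE 0.24, 95% interval −1.16 to −0.00051) had an unadjusted p of 0.0498 and an adjusted p of 0.0971 in edgeR, and DESeq2 gave an adjusted p of 0.0179, so that by DESeq2 2 of 6 enzymes were lower (background 20.7%). Without Hom replicate 1 Ass1 was lower in edgeR too (−0.87, adjusted p = 0.00796). When only library size was used, the log2 fold change was −0.14 (adjusted p = 0.573), and −0.36 without Hom replicate 1 (adjusted p = 0.0640).

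Asl (gene 109900) encodes argininosuccinate lyase. It was at 369, 452 and 381 CPM in WT and at 493, 248 and 241 CPM in Hom livers, with the highest and the lowest values both among the Hom livers. The means were 401 ± 45.0 and 327 ± 144 CPM (SD, n = 3 each) and the log2 fold change was −0.29 (SE 0.29, 95% interval −0.97 to 0.38, adjusted p = 0.442). Hom replicate 1 held 2.02 times the mean of the other Hom livers, and without it Asl was lower (−0.71, adjusted p = 0.00867). On library size alone the value was 0.14 with all 6 livers (adjusted p = 0.633) and −0.20 without Hom replicate 1 (adjusted p = 0.164).

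Arg1 (gene 11846) encodes arginase, which releases urea. It measured 1033, 1240 and 1173 CPM in WT and 1743, 799 and 867 CPM in Hom livers. The group means were almost equal, 1149 ± 106 against 1137 ± 527 CPM (SD, n = 3 each), while Hom replicate 1 held 2.09 times the mean of Hom replicates 2 and 3. The log2 fold change was −0.015 (SE 0.31, 95% interval −0.74 to 0.71, adjusted p = 0.973) with all livers and −0.46 without Hom replicate 1 (adjusted p = 0.0421). On library size alone it was 0.42 (adjusted p = 0.206), and 0.049 without that liver (adjusted p = 0.725).

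Counted without Hom replicate 1, 5 of 6 enzymes were lower with TMM scaling (all but Nags), beside 18.1% of all genes tested in those 5 livers, and the median log2 fold change of the 6 moved from −0.36 to −0.66. In the same 5 livers no enzyme was lower on library size alone or with hepatocyte list factors in edgeR (at an unadjusted p under 0.05, Ass1 on library size alone and none with hepatocyte list factors). The 5 calls were thus not seen on these 2 scales. Few genes of any kind are lower on them, with all 6 livers 4.65% on library size alone and 437 of 13805 with hepatocyte list factors. The count of 0 is therefore not particular to the enzymes, and the shares in 5 livers were not counted. With library size alone and all 6 livers, 1 enzyme was lower (Otc, background 4.65%) and 1 higher (Nags, background 47.6%), with a member median of 0.089. Without Hom replicate 1 that median was −0.14. Where the factors were instead taken from a list of hepatocyte transcripts, no enzyme was lower at an adjusted p under 0.05 in edgeR (background 437 of 13805 genes), nor was any at an unadjusted p under 0.05, and Nags was higher (0.53, adjusted p = 0.00570, background 56.2%). Groups that did not overlap, all 3 Hom livers under all 3 WT livers, were seen for 2 of 6 enzymes and for 27.0% of all tested genes. Counts of the gene lists below stand beside the same shares of all tested genes. These are 20.1% lower and 21.5% higher with TMM scaling and 18.1% lower without Hom replicate 1. On library size alone they are 4.65% lower and 47.6% higher.

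**Figure D2:**
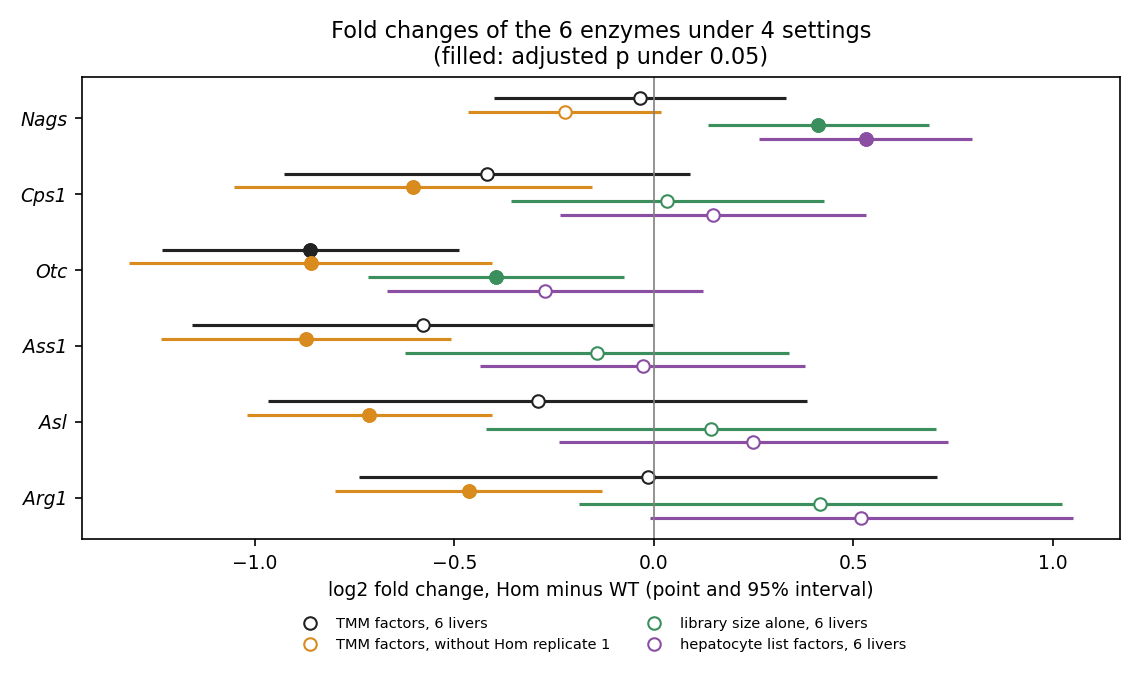
Log2 fold changes (Hom minus WT, horizontal axis) of the 6 enzymes with 95% intervals under 4 settings, with filled points at an adjusted p under 0.05. Otc was under 0 in all 4, Ass1 lay between −0.87 and −0.028, and Nags, Cps1, Asl and Arg1 turned from under 0 with TMM factors to over 0 with library size alone or hepatocyte list factors.

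The spread among livers was larger than counting error in both groups, so that the excess is not particular to Hom livers. Coefficients of variation in Hom livers ran from 10.4% for Otc through 21.1% for Cps1, 21.4% for Nags, 32.0% for Ass1 and 43.9% for Asl to 46.3% for Arg1, while counting alone would give at most 2.58%. In WT livers they ran from 5.33% for Ass1 to 17.2% for Otc, against at most 2.99% from counting. The excess of Hom replicate 1 over the mean of the other Hom livers followed the order of the pathway only in part, from 1.42 times for Nags and 1.41 times for Cps1 through 0.997 times for Otc to 1.67 times for Ass1, 2.02 times for Asl and 2.09 times for Arg1.

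Compared per length, as TPM (a length-scaled share of each library, which therefore follows library make-up), Ass1 was the most abundant of the 6 in every liver and Nags the least. WT means were 4713 ± 586 TPM for Ass1, 1153 ± 35.2 for Arg1, 1107 ± 84.3 for Cps1, 346 ± 31.8 for Asl, 248 ± 16.6 for Otc and 47.1 ± 3.13 for Nags (SD, n = 3). Arg1 and Cps1 did not differ beyond their spread in WT livers, where WT replicate 2 had them in the reverse order, while the other neighbours in this order did not overlap. In Hom livers the TPM order was the same, with Ass1 at 4772 ± 1152, Arg1 at 1726 ± 663, Cps1 at 1274 ± 170, Asl at 426 ± 153, Otc at 212 ± 24.7 and Nags at 70.3 ± 9.65 (SD, n = 3), and Arg1 and Cps1 again overlapped between livers. Together the 6 transcripts made up 0.824%, 0.765% and 0.695% of TPM in WT replicates 1 to 3 and 1.09%, 0.705% and 0.746% in Hom replicates 1 to 3. Hom replicate 1 held the largest share, and the other Hom livers lay within the WT range. As a share of counts, which is not scaled by length, the 6 made up 0.974%, 1.01% and 0.934% in WT and 1.22%, 0.824% and 0.870% in Hom livers, so that on this measure Hom replicates 2 and 3 lay under every WT liver.

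Ratios between transcripts of the same liver need no scaling between libraries, and 7 were compared by exact two-sided permutation tests, in which 3 livers against 3 cannot give a p under 0.1. The Cps1 to Otc ratio, per length, was 4.70, 4.68 and 4.05 in WT and 7.53, 5.75 and 4.98 in Hom livers, without overlap (log2 difference 0.42, exact permutation p = 0.1, the smallest possible, adjusted over the 7 ratios 0.35). Without Hom replicate 1 the log2 difference was 0.26. Nags to Cps1 was 0.0464, 0.0398 and 0.0417 in WT and 0.0554, 0.0550 and 0.0551 in Hom livers (log2 difference 0.37, exact permutation p = 0.1, adjusted 0.35). The Hom livers, including replicate 1, thus had nearly the same Nags to Cps1 ratio, and each was over every WT liver. Ass1 to Cps1 overlapped between the groups (log2 difference −0.20, exact permutation p = 0.3, adjusted 0.42). With each liver left out in turn, it ran from −0.28 (without Hom replicate 1) to −0.080 (without WT replicate 1). Ass1 to Asl (−0.25, and −0.16 without Hom replicate 1, exact permutation p = 0.2, adjusted 0.35) overlapped too. So did Arg1 to Arg2 (0.54, exact permutation p = 0.2, adjusted 0.35), where Arg2, the mitochondrial arginase, had too few counts to be tested. With each liver left out in turn, the Arg1 to Arg2 difference ran from 0.19 (without WT replicate 1) to 0.83 (without WT replicate 2).

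Cps1 and Glul mark the periportal and pericentral arms of ammonia removal. Their ratio was 1.27, 2.07 and 1.61 in WT livers and 5.95, 1.66 and 1.98 in Hom livers (log2 difference 0.73, exact permutation p = 0.4, adjusted 0.467). Hom replicate 1 was far over the rest, the other Hom livers lay within the WT range, and without Hom replicate 1 the log2 difference was 0.16. Gls2, the glutaminase of periportal hepatocytes, gave ratios to Glul of 0.251, 0.371 and 0.289 in WT and 1.40, 0.230 and 0.294 in Hom livers (log2 difference 0.61, exact permutation p = 0.8, adjusted 0.8). Here too Hom replicate 1 was the highest of the 6 livers, and without it the difference had the other sign (−0.20).

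Of 40 listed hepatocyte transcripts 39 had enough counts. Among these 23 were lower in Hom livers and 1 higher, beside 20.1% and 21.5% of all tested genes, and the rest did not pass. Their median log2 fold change was −0.59. With library size alone 12 were lower and 5 higher, beside 4.65% and 47.6% of all genes. In bulk liver, fewer hepatocytes and less RNA per hepatocyte cannot be told apart. The median log2 CPM of this list was 10.8, 11.1 and 11.0 in WT and 10.4, 10.1 and 10.2 in Hom livers. Set against it within each liver, Nags was higher in Hom than in WT livers by 0.67 on the log2 scale, Arg1 by 0.61 and Cps1 by 0.29, each without overlap (exact two-sided permutation p = 0.1 for each, the smallest possible). On this scale, however, all 3 Hom livers were over all 3 WT livers for 72.6% of all tested genes, and the median difference of all genes was 0.72, over that of each enzyme. Asl (0.35, exact permutation p = 0.3), Ass1 (0.095, exact permutation p = 0.8) and Otc (−0.13, exact permutation p = 0.3) overlapped between the groups, and Otc was the one member under 0. Leaving out Hom replicate 1 gave differences of 0.57 for Nags, 0.33 for Arg1, 0.20 for Cps1, 0.081 for Asl, −0.084 for Ass1 and −0.064 for Otc. The permutation p-values were not adjusted over the members.

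**Figure D3:**
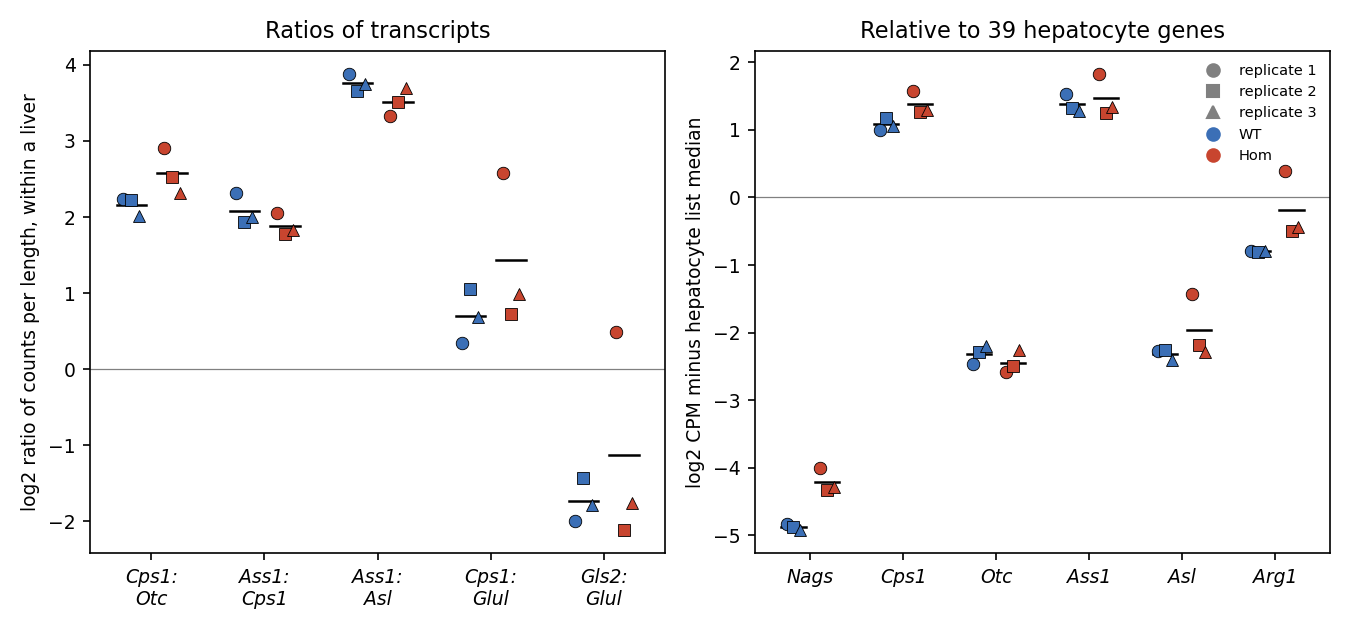
Left, log2 ratios of counts per length between pairs of transcripts within a liver, and right, log2 CPM of each enzyme minus the median of 39 hepatocyte transcripts in the same liver, for WT (blue) and Hom livers (red), with a bar at each group mean. Of the 5 pairs drawn on the left only Cps1 to Otc, and on the right Nags, Cps1 and Arg1, do not overlap between groups, and Hom replicate 1 (circle) is the highest Hom liver for every pair against Glul.

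Markers of other cell types were counted in the same comparison, beside 20.1% of all tested genes lower and 21.5% higher. Their part in the values of the enzymes was not tested. Of 12 cholangiocyte (bile duct) markers, 11 were higher in Hom livers and none lower, with a summed level of 74.4 to 107 CPM in WT and 691 to 933 CPM in Hom livers. Krt7 and Krt19, defining bile duct keratins, stood at 1.11 to 1.45 and 0.922 to 2.46 CPM in WT livers and at 7.30 to 9.31 and 15.1 to 21.5 CPM in Hom livers. Of 14 stellate cell and fibroblast markers, 9 were higher and 1 lower (summed 381 to 442 against 804 to 904 CPM), and of 12 proliferation genes 10 were higher (10.2 to 20.8 against 31.7 to 64.9 CPM). Of 17 macrophage markers, 3 were lower and 3 higher (358 to 800 against 630 to 843 CPM, with WT replicate 1 at 800), no larger a share than that of all genes, and without Hom replicate 1 the counts were 1 lower and 3 higher. Of 13 endothelial markers, 6 were lower (323 to 429 against 259 to 263 CPM), and of 7 T, B and NK cell markers 2 were higher (6.33 to 9.38 against 8.87 to 15.0 CPM), and 3 of 8 without Hom replicate 1. With library size alone, 1 macrophage marker was lower and 9 higher, 3 endothelial markers were lower and 3 higher, and 12 stellate cell and fibroblast markers and 12 proliferation genes were higher. On that scale 4.65% of all tested genes were lower and 47.6% higher. The summed hepatocyte list ran from 206561 to 244539 CPM in WT and from 120365 to 175862 CPM in Hom livers, with Hom replicate 1 the highest of the Hom livers.

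Some zonal markers had a value in Hom replicate 1 apart from those of the other Hom livers, while others, such as Cdh1 and Cyp7a1, had it between them. Of 14 periportal markers, 3 were lower and 1 higher with all 6 livers (median −0.40), a share lower near the 20.1% of all tested genes. Without Hom replicate 1, 10 were lower and 1 higher (median −0.76), beside 18.1% of all genes lower. Sds, a serine dehydratase of periportal hepatocytes, was at 316, 272 and 212 CPM in WT and at 529, 119 and 143 CPM in Hom livers, and was lower without Hom replicate 1 (log2 fold change −1.03, past the threshold). Of 14 pericentral markers, 8 were lower and 2 higher (median −1.07), and 8 lower and 1 higher without Hom replicate 1 (median −0.82). Cyp2e1, a pericentral cytochrome, was at 7229, 9244 and 8136 CPM in WT and at 396, 1399 and 1401 CPM in Hom livers. Hom replicate 1 was thus the highest Hom liver for Sds and the lowest for Cyp2e1 and Glul. With library size alone 1 periportal marker was lower and 3 higher, and 6 pericentral markers were lower and 2 higher, beside 4.65% of all genes lower and 47.6% higher.

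With TMM scaling, the genes that carry and supply the substrates of the cycle were lower or did not pass the test. Of 12 tested genes of urea cycle transport and supply (14 listed), 5 were lower and none higher with TMM scaling (median −0.44), 6 lower without Hom replicate 1, and 2 lower and 3 higher with library size alone. Car5a, the mitochondrial carbonic anhydrase that provides bicarbonate for CPS1, was at 49.2, 76.6 and 73.6 CPM in WT and at 36.9, 31.0 and 31.5 CPM in Hom livers (means 66.5 and 33.1 CPM, adjusted p = 0.00508, and a log2 fold change of −1.09 without Hom replicate 1). Citrin (Slc25a13), the carrier that brings aspartate out of the mitochondria for ASS1, was at 166, 230 and 220 CPM in WT and at 132, 109 and 126 CPM in Hom livers (−0.75, adjusted p = 0.00778). For both genes the groups did not overlap. Aqp9, a channel for urea and glycerol (−0.84, adjusted p = 0.00516), and Sirt3, a mitochondrial deacetylase (−0.83, adjusted p = 6.78e-04), were lower too, as was Sirt4 (−0.41, adjusted p = 0.0331), which missed the threshold without Hom replicate 1 (adjusted p = 0.0769). On library size alone Car5a and Sirt3 stayed lower, and Slc25a13, Aqp9 and Sirt4 did not pass. Slc25a15, which exchanges ornithine and citrulline across the inner membrane, was at 297, 409 and 336 CPM in WT and at 401, 207 and 275 CPM in Hom livers (−0.24, adjusted p = 0.467), again with Hom replicate 1 the highest Hom liver. Sirt5, which removes acyl groups from CPS1, had a log2 fold change of −0.45 (adjusted p = 0.136).

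Among 13 tested genes of ammonia, glutamine and glutamate metabolism (16 listed), 6 were lower (median −0.53), and 10 were lower without Hom replicate 1. Glul was at 1422, 1198 and 1321 CPM in WT and at 334, 822 and 735 CPM in Hom livers (log2 fold change −1.06, adjusted p = 0.0357). Hom replicate 1, the highest of the Hom livers for 5 of the urea cycle enzymes, was the lowest of the Hom livers and of all 6 livers here. Glud1, the mitochondrial glutamate dehydrogenase that releases ammonia, was at 1385, 1334 and 1456 CPM in WT and at 870, 814 and 834 CPM in Hom livers (−0.73, adjusted p = 0.00411). Got2, the mitochondrial aspartate aminotransferase, was lower as well (−0.80, adjusted p = 0.00292), and Hom replicate 1 did not stand apart for it, at 387 CPM against 384 and 401. Also lower were the glutamate transporter Slc1a2 (−1.31, adjusted p = 0.00108), the glutamine transporter Slc38a2 (−1.62, adjusted p = 0.00144) and the mitochondrial glutamate carrier Slc25a22 (−0.69, adjusted p = 0.0365). Gls2 was at 312, 389 and 334 CPM in WT and at 409, 165 and 189 CPM in Hom livers (−0.44, adjusted p = 0.328), and like Asl and Arg1 it was lower without Hom replicate 1 (−0.96, adjusted p = 0.00467). On library size alone 3 genes of this list were lower (Got2, Slc1a2 and Slc38a2), and Glul, Glud1 and Slc25a22 did not pass.

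Genes that use arginine and ornithine had calls in both directions. Of 23 tested (25 listed), 8 were lower and 3 higher (median −0.037), beside 20.1% and 21.5% of all tested genes. The counts were 7 lower and 2 higher without Hom replicate 1. With library size alone 5 were lower and 8 higher, beside 4.65% and 47.6% of all tested genes. On both scales the share called higher was under that of all genes. Oat, the ornithine aminotransferase of pericentral hepatocytes, was at 700, 814 and 1039 CPM in WT and at 325, 389 and 382 CPM in Hom livers (log2 fold change −1.22, adjusted p = 0.00249). Agmat, which hydrolyses agmatine, an arginine derivative, to urea and putrescine, was lower (−1.27, adjusted p = 4.09e-04), as was the creatine synthesis enzyme Gamt (−0.90, adjusted p = 0.00286). The proline and pyrroline-5-carboxylate enzymes Prodh (−0.72, adjusted p = 0.00648) and Aldh4a1 (−0.81, adjusted p = 0.00515) and the reductase gene Pycrl (−0.64, adjusted p = 0.00553) were lower too, and so were Oaz1, an inhibitor of polyamine synthesis (−0.84, adjusted p = 9.55e-04), and Ddah1, which degrades methylated arginines (−0.46, adjusted p = 0.0281). Aldh18a1, which makes pyrroline-5-carboxylate from glutamate, was higher (1.34, adjusted p = 0.0252), and so was the polyamine acetyltransferase Sat1 (0.93, adjusted p = 0.00372). Without Hom replicate 1, Ddah1 (adjusted p = 0.0638) and Aldh18a1 (adjusted p = 0.0508) missed the threshold. On library size alone Prodh, Pycrl and Ddah1 did not pass. Nos2, the inducible nitric oxide synthase, was higher in the test (adjusted p = 0.00303) but stayed under 2 CPM in each liver, with 0 to 3 counts in WT and 29 to 40 in Hom livers.

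Carbamoyl phosphate is also made in the cytosol for pyrimidines, and of 3 such genes 1 was lower, Dhodh (−0.46, adjusted p = 0.0307), while Cad, which holds the cytosolic synthetase, had a log2 fold change of −0.53 (adjusted p = 0.124). Both were lower without Hom replicate 1 (Cad −0.76, adjusted p = 0.0439), and with library size alone none of the 3 was lower and 1 was higher.

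Of 18 regulators known to act on urea cycle genes or on their hormonal control, 8 were lower and none higher with TMM scaling (median −0.56), 7 lower without Hom replicate 1, and 3 lower and 3 higher with library size alone. Hnf4a, the hepatocyte nuclear factor needed for Otc expression, was at 784, 967 and 828 CPM in WT and at 578, 505 and 516 CPM in Hom livers (log2 fold change −0.69, adjusted p = 0.00745). Lower too were Cebpb (−0.92, adjusted p = 0.00385), the glucagon receptor Gcgr (−0.51, adjusted p = 0.00347) and the fasting regulators Ppara (−1.30, adjusted p = 0.00159), Creb3l3 (−0.84, adjusted p = 0.00179) and Ppargc1a (−0.87, adjusted p = 0.0347). Klf15, a factor that promotes amino acid breakdown (−1.10, adjusted p = 0.00408), and Foxa1 (−0.98, adjusted p = 0.0388, and 0.0987 without Hom replicate 1) made up the 8. On library size alone Ppara, Creb3l3 and Klf15 stayed lower. Hnf4a (−0.23, adjusted p = 0.131), Gcgr (−0.051, adjusted p = 0.724), Cebpb, Ppargc1a and Foxa1 did not pass on that scale. Cebpa, the factor long tied to urea cycle gene expression, was at 289, 470 and 531 CPM in WT and at 320, 375 and 304 CPM in Hom livers, which overlapped (−0.37, adjusted p = 0.228), and the glucocorticoid receptor gene Nr3c1 had a log2 fold change of 0.29 (adjusted p = 0.0863).

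**Figure D4:**
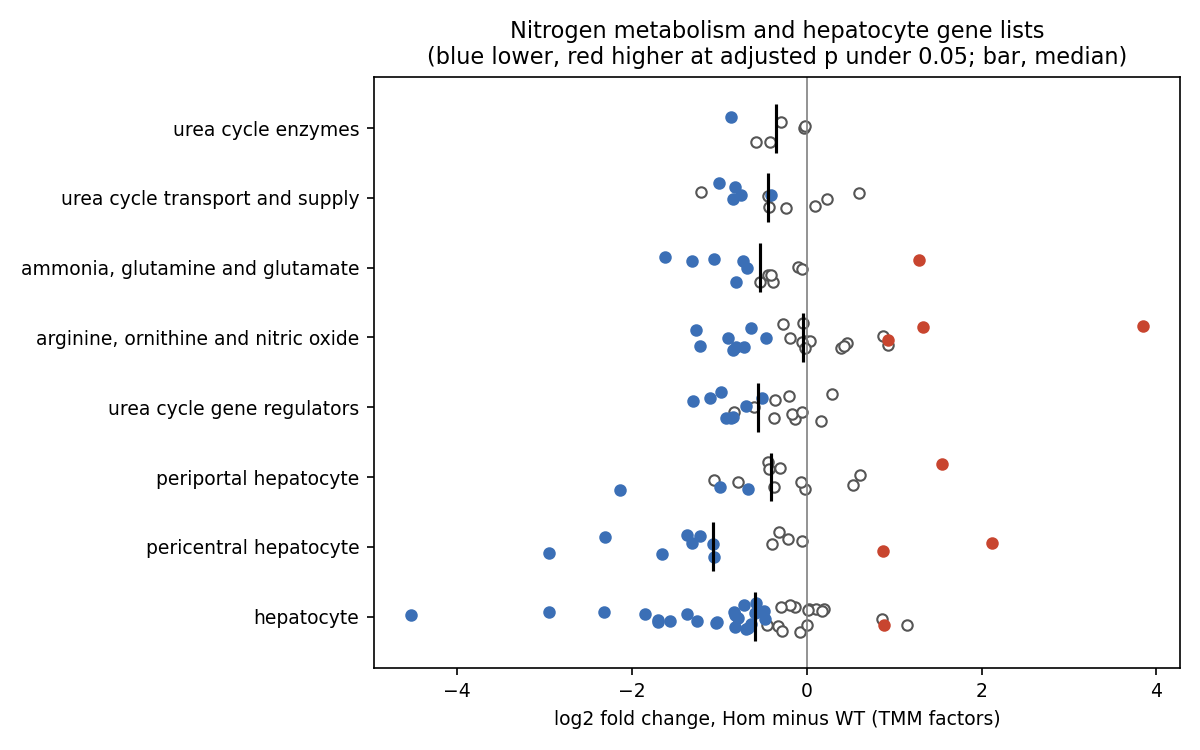
Log2 fold changes (Hom minus WT, TMM factors, horizontal axis) of each tested gene in 8 lists, blue where lower and red where higher at an adjusted p under 0.05, with a bar at the list median. The enzymes have a median of −0.36 and the hepatocyte list one of −0.59, and with library size alone the enzymes' median was 0.089 (−0.14 without Hom replicate 1).

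How alike the patterns of the members were was described by the root mean square difference between log2 CPM values centred on each gene's own mean over the 6 livers. Asl and Arg1 were the closest pair (0.15), and Otc and Arg1 the farthest (0.52). Among 8264 other genes with a mean of at least 10 CPM, the 5 nearest to the mean profile of the 6 enzymes were Ldhd (0.062), Fbp1 (0.064), Slc9a3r1 (0.073), Gpt (0.077) and Pde3b (0.082). The nearest to each enzyme were Igfbp4 for Nags (0.032), Hgd for Cps1 (0.064), Gpr155 for Otc (0.068), Uroc1 for Ass1 (0.078), Etnk2 for Asl (0.082) and Got1 for Arg1 (0.051). Got1, the cytosolic aspartate aminotransferase, was at 255, 323 and 305 CPM in WT and at 414, 202 and 209 CPM in Hom livers, with Hom replicate 1 over every other liver as for Arg1, and it too was lower without that liver (−0.52, adjusted p = 0.0247). Over 6 livers in 2 groups, such nearness is a description of shape only.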

How the data were processed

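RNA of 6 livers (3 Hom, 3 WT), extracted with Trizol, was sequenced by BGI Genomics on the DNBSEQ platform. The submitters' processing notes name HISAT2 2.0.4, Bowtie2 2.2.5, RSEM 1.2.12 and the mouse build mm9, without their roles, and the annotation and strandedness are not given in the sources used here. The authors deposited estimated counts (expected counts, not scaled between livers, 65.9% of them whole), FPKM values and TPM values for 17975 genes. The authors' FPKM values served only to recover gene length, and the authors' TPM values to describe the levels, order and share of the enzymes and, as an alternative, to form the ratios. The deposited group means have crossed names for all 17975 genes and were not used.

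Counts were rounded to integers for edgeR 4.0.16 (R 4.3.3). Of all genes, 13805 passed filterByExpr, libraries were scaled with TMM, and Hom livers were compared with WT livers by the quasi-likelihood test, with Benjamini-Hochberg adjustment over all tested genes and 0.05 as the threshold, with no fold minimum. Ratios were compared by exact permutation (SciPy 1.17.1). No pair of libraries within a group agreed within sampling noise, and each came from its own mouse. The chi-square over its degrees of freedom was lowest for WT replicates 2 and 3 (22.3) and highest for WT replicates 1 and 3 (152). The members and gene lists were chosen with earlier results of these data known. Genes named were Nek7, the 6 enzymes, pathway genes past the threshold or in a ratio, and the nearest genes by pattern. A gene of the ammonia, glutamine and glutamate list is not reported here. Albumin, Krt7, Krt19, Sds, Cyp2e1, Cdh1, Cyp7a1, the Y-linked genes and the pathway genes that missed the threshold were named after their values were seen. Promoters are RefSeq's on GRCm38.p6, a later build than the one the files used, and no coordinate was carried between builds.

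Alternatives were DESeq2 1.42.0, library size alone, upper-quartile or hepatocyte list factors, a minimum of 10 counts per liver, no filter, a fold minimum, a gene length correction (loess), the replicate block and each liver left out in turn. Tested on simulated data in which 200 genes had a log2 change of 1, the procedure called 50.3% of the 191 changed genes that were tested among 12987, and 0.031% of unchanged genes.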

Additional observations from a re-analysis of the deposited data

How the results depend on the processing

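Otc was lower with every planned setting except hepatocyte list factors (log2 fold change −0.27, adjusted p = 0.195) and the fold minimum, which it did not reach. With Hom replicate 1 left out as well, chosen after seeing the data, it was −0.34 on library size alone (adjusted p = 0.0868) and −0.20 with hepatocyte list factors (adjusted p = 0.343). The count of lower enzymes, 1 as reported, was 0 with a log2 fold change of at least 1 required, 2 in DESeq2, 0 with hepatocyte list factors and 1 to 5 with each liver left out in turn. It was 0 without Hom replicate 1 on library size alone or hepatocyte list factors. The count of higher enzymes was 1 with library size alone and 1 with hepatocyte list factors, both also without Hom replicate 1. The median of −0.36 became 0.089 with library size alone, and −0.14 on that scale without Hom replicate 1. It was 0.20 with hepatocyte list factors, 0.010 with these and no Hom replicate 1, and −0.66 to −0.22 with TMM factors and each liver left out.

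Signs turned as follows, and the cause was not tested beyond the scaling itself. With library size alone, Nags was 0.41, Cps1 0.034, Asl 0.14 and Arg1 0.42, and without Hom replicate 1 Nags was 0.29 and Arg1 0.049. With hepatocyte list factors they were 0.53, 0.15, 0.25 and 0.52, and without Hom replicate 1 Nags was 0.44, Cps1 0.064 and Arg1 0.20. Nags and Arg1 were 0.056 and 0.075 with upper-quartile factors, 0.012 and 0.031 with at least 10 counts in every liver, and 0.047 and 0.13 after the gene length correction. With each liver left out, Nags ran from −0.22 to 0.070, Arg1 from −0.46 to 0.18, the Gls2 to Glul log2 ratio difference from −0.20 to 1.10 and Ass1 relative to hepatocyte genes from −0.084 to 0.21.

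WT and Hom livers share replicate numbers but are different mice, and same-numbered livers did not deviate together (correlations −0.11, −0.056 and −0.049). With the replicate block, 1 enzyme was lower and 0 higher (Otc −0.85, adjusted p = 0.0149), and no call on an enzyme changed. Each enzyme had at least 1082 counts in every liver, so depth limits Arg2 and Nos2 but not the enzymes, whereas 3 livers a group limit every test here. With 1 liver taken out, the smaller group rests on 2.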
